A study of Rattus norvegicus with 18 samples.

Results

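Sham_solvent libraries were set against Ctrl_solvent libraries in dorsal root ganglia of rats, 3 libraries in each group, so the comparison used 6 of the 18 libraries of the study. The libraries of each group were taken by their labels, and every gene that passed a filter on low counts was tested. The comparison, its gene lists and its key genes were chosen with earlier results of these data known. The Sham_solvent group is labelled with the disease state Sham and the treatment solvent, and the Ctrl_solvent group with the disease state Ctrl and the treatment solvent. Both groups therefore share the vehicle and differ in the disease state as labelled. The study set up a rat model of neuropathic pain, labelled NPP, and gave Shentong Zhuyu Decoction, a mixture of herbs, to some of its animals. The other groups are NPP_solvent, NPP_herb, Sham_herb and an untreated Ctrl group, each with 3 libraries. What the sham operation consisted of, the composition and route of the solvent, the time after the operation, and the strain, sex and age of the rats are not stated by the sources used here. Nothing in the labels says whether a library came from 1 rat or from pooled ganglia. The p-values rest on the spread between libraries of a group, estimated over all 18 libraries unless stated otherwise. It is therefore not the spread of these 6 libraries alone, and it may be technical in part.

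A dorsal root ganglion holds the cell bodies of sensory neurons that carry touch, body position, temperature and pain to the spinal cord. Each neuron is wrapped by satellite glia, its axon by Schwann cells, and resident macrophages lie between them. A sham operation usually exposes the tissue without the nerve lesion, and it is the usual reference for the lesion. After injury of a peripheral nerve, the neurons switch on a known set of genes, among them Atf3, Gal, Npy and Sprr1a, and macrophages and T cells gather in the ganglion. Interferon gamma, which T and NK cells release, acts through IRF1, among other factors, and raises genes of antigen presentation and the chemokines Cxcl9, Cxcl10 and Cxcl11. Type I interferon acts through IRF9, among other factors, and raises antiviral genes such as Irf7, Isg15 and the Ifit family.

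The 6 libraries held 26027334, 50289652 and 29798750 assigned reads in Sham_solvent and 18170925, 36885633 and 21987007 in Ctrl_solvent, here and below in the order of replicates 1, 2 and 3. Levels are counts per 1000000 reads (CPM) after TMM scaling, and they are compared between libraries and not between genes, since they are not divided by gene length. Mitochondrially encoded genes took 8.83% to 10.7% of reads in Sham_solvent and 8.01% to 9.72% in Ctrl_solvent. Reads of Eif2s3y, a gene of the Y chromosome, were present in all 6 libraries, between 2373 and 6568 per library. The Ctrl_solvent libraries did not group together. The library labelled Ctrl_solvent replicate 2 had a Pearson correlation of log2 CPM across genes of 0.973 with Ctrl_solvent replicate 1 and 0.972 with Ctrl_solvent replicate 3, against 0.984, 0.985 and 0.990 with the 3 Sham_solvent libraries. Ctrl_solvent replicates 1 and 3 had a correlation of 0.989 with each other. Genes are not independent replicates, so these correlations describe the libraries. Whether the label of that library is right cannot be checked from the files, so every difference between the groups rests on the labels as given. Results below are given library by library, with counts that leave out libraries where these move.

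No single gene differed between Sham_solvent and Ctrl_solvent at an adjusted p under 0.05. Of 17043 genes tested with edgeR's quasi-likelihood test, 0 were called (0% of those tested) and the smallest Benjamini-Hochberg adjusted p was 0.458. At an unadjusted p under 0.05, 1043 genes passed (6.12%), of which 281 were higher in Sham_solvent (1.65%) and 762 were lower (4.47%). All 3 Sham_solvent libraries lay above all 3 Ctrl_solvent libraries for 514 genes (3.02%) and below them for 703 (4.12%). The median log2 fold change over all tested genes was -0.0073. Without Ctrl_solvent replicate 2 the same test called 252 genes, 19 higher and 233 lower in Sham_solvent, with a smallest adjusted p of 0.000779. That library was the one of its group most correlated with the Sham_solvent libraries, so leaving it out widens the gap between the groups. Adjusted p-values from that edgeR fit, here and below, are therefore descriptive. DESeq2's Wald test on all libraries called 35 genes, 3 higher and 32 lower, and 32 of the 35 were among those 252. Leaving out any one of the other 5 libraries gave 0 called genes with edgeR. With the 6 libraries fitted alone, edgeR called 0 of 16111 genes, with a smallest adjusted p of 0.999. At an unadjusted p under 0.05, 547 genes passed in that fit.

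Of the 762 genes lower at an unadjusted p under 0.05, 139 were members of any gene list and 623 were in none. In 6 of 37 gene lists, 50% or more of the tested members passed an unadjusted p under 0.05 and were lower: T and NK cell genes, interferon gamma and MHC class I genes, MHC class II genes, cell cycle genes, inflammatory mediators and macrophage genes. Inflammation-linked transcription factors and complement genes followed with 44.1% and 41.7%. Over all tested genes that share was 4.47%. The lists were chosen with earlier results of these data known, so their shares are descriptive. No list had 25% or more of its tested members higher in Sham_solvent. In these 8 lists the Sham_solvent libraries and Ctrl_solvent replicate 2 lay near the other 12 libraries of the study, and Ctrl_solvent replicates 1 and 3 lay above them.

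**Figure D1:**
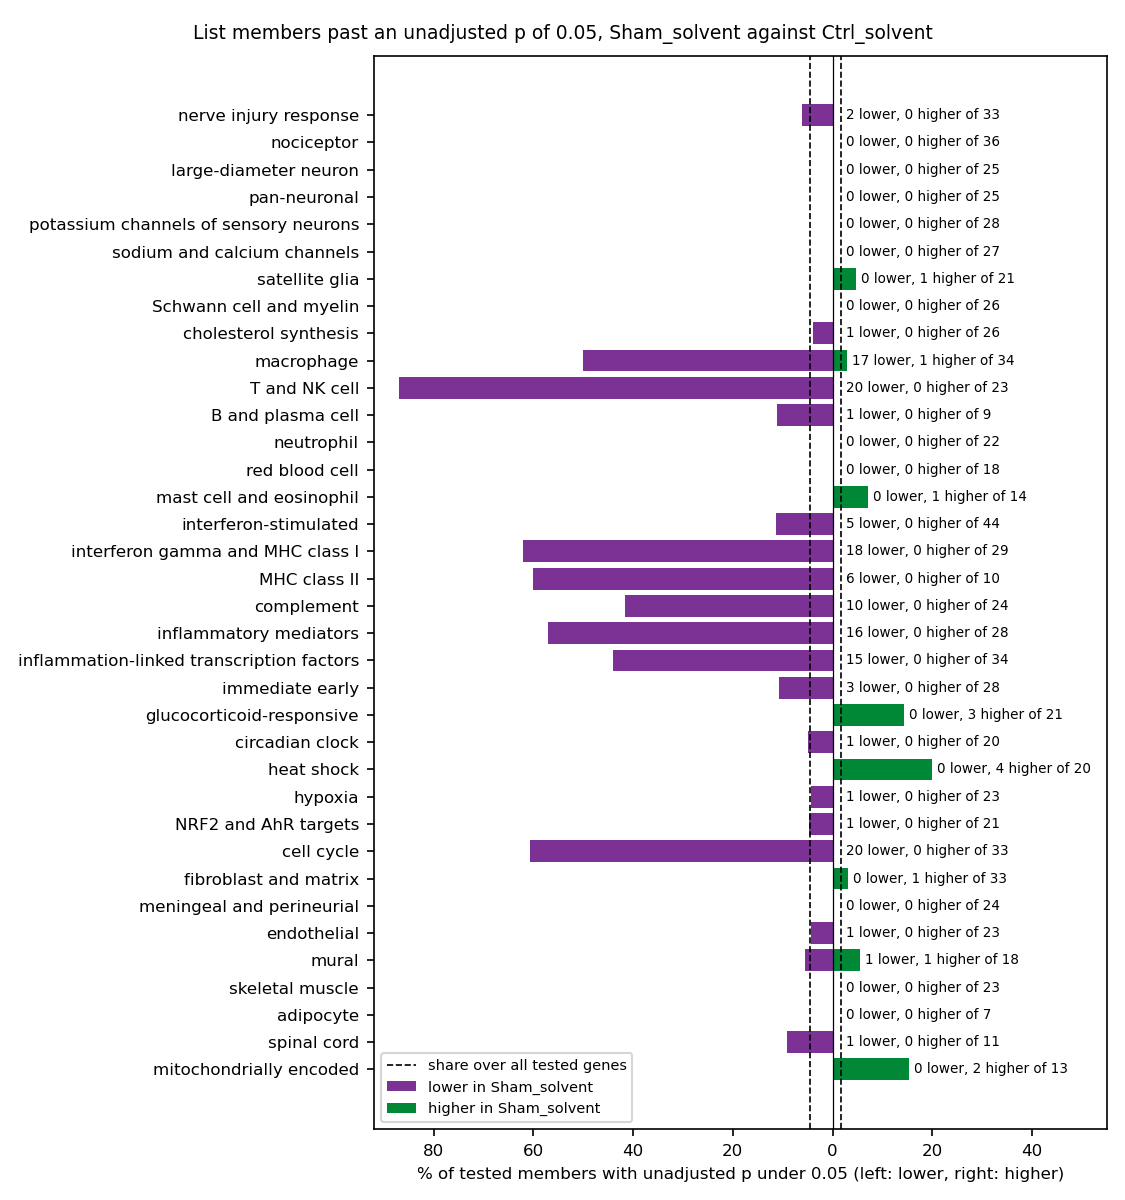
Share of the tested members of each gene list that passed an unadjusted p under 0.05 with edgeR, lower in Sham_solvent to the left and higher to the right, with the counts beside each bar and dashed lines at the shares over all tested genes (4.47% lower, 1.65% higher). T and NK cell genes reach 87.0% lower, and the neuron lists have no member past that value.

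T and NK cell genes were lower in Sham_solvent than in Ctrl_solvent replicates 1 and 3, and the list had the largest share past an unadjusted p under 0.05. Of 32 genes listed, 30 are in the table and 23 passed the filter on low counts. All 23 had a fold change below 0, 20 of them (87.0%) passed an unadjusted p under 0.05 and 9 did not overlap between the groups. Of all tested genes, 51.6% had a fold change below 0. The other shares stand beside 4.47% of all tested genes past that p and lower, and 4.12% of all tested genes below without overlap. Without Ctrl_solvent replicate 3 the count of members past that p was 12, and without Ctrl_solvent replicate 2 it was 26. The low-count filter was run anew in each fit without a library, here and for the lists below. More members than the 23 could therefore be tested there, and such counts do not share a denominator. Without Ctrl_solvent replicate 2, 17388 genes passed the filter, against 17043 with all libraries. Over all genes tested, 762 were lower past that p with all libraries. That number was 525, 1495 and 548 without Sham_solvent replicates 1, 2 and 3. It was 533, 1208 and 331 without Ctrl_solvent replicates 1, 2 and 3. Counts of list members without a library, here and below, stand beside these. A gene near 0 in most libraries can pass the filter only through libraries in which it is high, so the untested members matter too. The 7 that did not pass were also at a lower mean in Sham_solvent, as all 30 were. Summed over those 30 genes, the level was 58.1, 61.2 and 59.7 CPM in Sham_solvent, against 146, 82.0 and 178 CPM in Ctrl_solvent. The other 12 libraries lay between 54.2 and 89.1 CPM. In bulk tissue, fewer cells of a type and less RNA per cell cannot be told apart.

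Cd8a, on chromosome 4, encodes a chain of the co-receptor of cytotoxic T cells. It had 0.244, 0.216 and 0.405 CPM in Sham_solvent, against 7.41, 0.676 and 7.79 CPM in Ctrl_solvent. The groups did not overlap, but Ctrl_solvent replicate 2 lay close to the Sham_solvent libraries. The log2 fold change was -4.19 ± 0.96 (SE), with an unadjusted p of 0.00049 and an adjusted p of 0.459 in edgeR. The adjusted p was 0.01 in edgeR without Ctrl_solvent replicate 2 and 0.00484 in DESeq2. Cd3e, a chain of the T cell receptor complex, had 0.244, 0.0982 and 0.169 CPM in Sham_solvent, against 4.17, 0.325 and 3.81 CPM in Ctrl_solvent. Gzmb, the protease with which cytotoxic cells kill their targets, had 0.122, 0.295 and 0.203 CPM in Sham_solvent, against 6.44, 0.0271 and 10.6 CPM in Ctrl_solvent. For Gzmb the groups overlapped, because Ctrl_solvent replicate 2 was the lowest of the 6 libraries. Its level there is 1 read, and that in Sham_solvent replicate 1 is 3 reads, so the order of these libraries is uncertain. Ccl5, a chemokine that T cells release, had 1.30, 0.904 and 0.642 CPM in Sham_solvent, against 11.04, 1.30 and 15.4 CPM in Ctrl_solvent. Its log2 fold change of -3.28 ± 0.68 had an adjusted p of 0.459 in edgeR fitted over all 18 libraries, 0.00104 without Ctrl_solvent replicate 2 and 0.00134 in DESeq2. Ifng itself, named after its values were seen, had 0 CPM in all 3 Sham_solvent libraries, against 0.703, 0 and 0.525 CPM in Ctrl_solvent, and did not pass the filter.

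**Figure D2:**
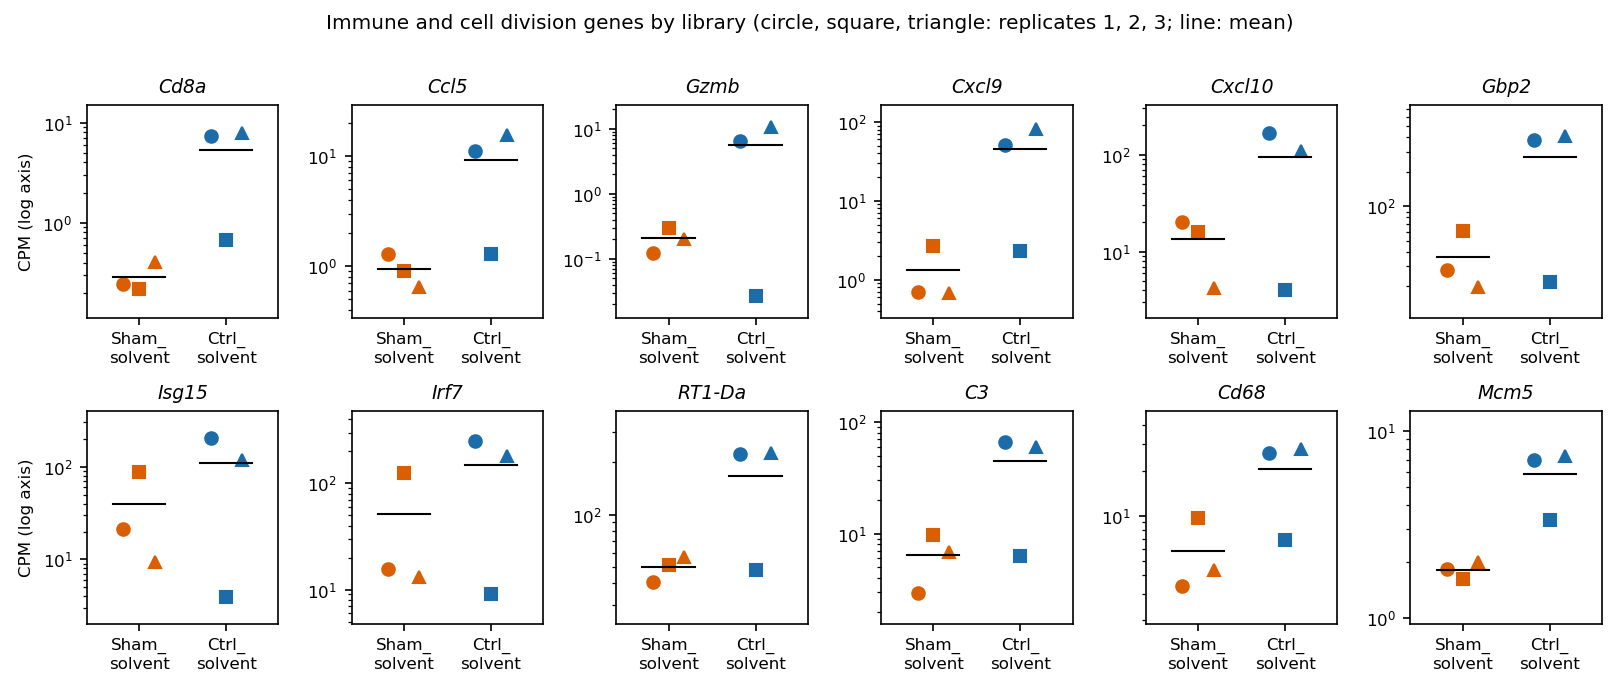
Level of 12 genes in each Sham_solvent library (orange, left) and each Ctrl_solvent library (blue, right), in CPM on log axes, with a line at the group mean. In most panels Ctrl_solvent replicates 1 and 3 stand above the rest and Ctrl_solvent replicate 2 (square) lies with the Sham_solvent libraries, while Sham_solvent replicate 2 lies nearer to them for Isg15 and Irf7.

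Genes that interferon gamma raises, with those of MHC class I, were lower in Sham_solvent in the same way. Of 32 genes listed, 29 were tested and all 29 had a fold change below 0, against 51.6% of all tested genes. Past an unadjusted p under 0.05 there were 18 (62.1%), against 4.47% of all tested genes lower past it. The median log2 fold change was -2.10, against -0.0073 over all tested genes. That count was 10 without Ctrl_solvent replicate 3, 11 without Ctrl_solvent replicate 1, 12 without Sham_solvent replicate 3 and 25 without Ctrl_solvent replicate 2. Gbp2, an interferon-induced GTPase on chromosome 2, had 27.8, 61.3 and 19.96 CPM in Sham_solvent, against 376, 21.8 and 410 CPM in Ctrl_solvent. Irf1, the transcription factor of the interferon gamma response, had 8.62, 13.8 and 9.996 CPM in Sham_solvent, against 106, 9.88 and 105 CPM in Ctrl_solvent. Both genes overlapped between the groups through Ctrl_solvent replicate 2 alone.

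The chemokines of chromosome 14 that attract activated T cells were among the members of this list with the widest differences. Cxcl9 had 0.691, 2.67 and 0.675 CPM in Sham_solvent, against 51.7, 2.33 and 80.2 CPM in Ctrl_solvent, a log2 fold change of -4.96 ± 1.24 with an adjusted p of 0.459 in edgeR and 0.00394 in DESeq2. Cxcl11 had 0.122, 0.570 and 0.0675 CPM in Sham_solvent, against 40.2, 0.379 and 34.6 CPM in Ctrl_solvent. For both, Ctrl_solvent replicate 2 lay below Sham_solvent replicate 2. The Cxcl11 level in Sham_solvent replicate 3 is under 3 reads, which are 0.101 CPM in that library. Ubd, a ubiquitin-like protein induced by interferon gamma, had 2.93, 0.884 and 1.42 CPM in Sham_solvent, against 73.9, 0.920 and 60.7 CPM in Ctrl_solvent. B2m, the light chain of MHC class I on chromosome 3, had 1075, 1150 and 1125 CPM in Sham_solvent, against 2940, 1030 and 2764 CPM in Ctrl_solvent. Il18bp, a secreted inhibitor of the cytokine IL-18, had 3.98, 4.24 and 3.04 CPM in Sham_solvent, against 28.1, 4.52 and 29.2 CPM in Ctrl_solvent. Its groups did not overlap, with 3.76 ± 0.633 CPM in Sham_solvent and 20.6 ± 14.0 CPM in Ctrl_solvent (SD, n = 3 each). The inducible subunit Psmb8 of the immunoproteasome, which cuts proteins into the peptides that MHC class I shows, had 10.6, 14.0 and 7.77 CPM in Sham_solvent, against 81.9, 8.14 and 67.2 CPM in Ctrl_solvent.

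Promoters of 4 key genes of the interferon lists are shown as examples, all of them with a match to the letters described here. The windows are the 250 bases before the transcription start in RefSeq's annotation of rat build GRCr8, 5′ to 3′ on the gene's strand. Capitals mark the letters of the interferon-stimulated response element searched for, GAAA, any 2 bases and GAAA again, on either strand. The windows are chr2:234005477-234005726 on the plus strand for Gbp2, chr14:15988816-15989065 on the plus strand for Cxcl10, chr1:205800024-205800273 on the minus strand for Irf7 and chr1:241527076-241527325 on the plus strand for Ifit3.
Gbp2: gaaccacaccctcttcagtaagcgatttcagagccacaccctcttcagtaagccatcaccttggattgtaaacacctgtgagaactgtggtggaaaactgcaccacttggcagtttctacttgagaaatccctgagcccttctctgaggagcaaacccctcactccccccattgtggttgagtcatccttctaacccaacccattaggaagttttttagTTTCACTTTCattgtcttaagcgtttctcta
Cxcl10: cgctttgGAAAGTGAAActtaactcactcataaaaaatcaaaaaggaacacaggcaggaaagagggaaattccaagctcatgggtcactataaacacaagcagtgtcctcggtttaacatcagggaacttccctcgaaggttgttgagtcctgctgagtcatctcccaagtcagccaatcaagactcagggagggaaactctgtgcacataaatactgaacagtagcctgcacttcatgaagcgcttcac
Irf7: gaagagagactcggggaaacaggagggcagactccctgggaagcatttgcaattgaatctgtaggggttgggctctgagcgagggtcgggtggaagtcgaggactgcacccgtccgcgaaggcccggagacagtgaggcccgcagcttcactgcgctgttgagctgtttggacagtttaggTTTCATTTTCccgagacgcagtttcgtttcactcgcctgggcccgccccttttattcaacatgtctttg
Ifit3: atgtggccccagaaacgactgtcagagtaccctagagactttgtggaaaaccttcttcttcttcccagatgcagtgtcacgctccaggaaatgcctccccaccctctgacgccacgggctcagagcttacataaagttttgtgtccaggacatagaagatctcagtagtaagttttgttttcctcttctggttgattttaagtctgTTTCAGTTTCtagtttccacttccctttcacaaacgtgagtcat
In Gbp2 the match ran from 31 to 22 bases before the start, and in Ifit3 from 44 to 35. It ran from 69 to 60 bases before the start in Irf7, and from 243 to 234 in Cxcl10. Among all 33469 promoter windows of the reference, 1140 (3.41%) held these letters, and among 12748 tested genes with a window, 372 (2.92%) did. Of the 569 genes with a window that were lower in Sham_solvent at an unadjusted p under 0.05, 48 (8.44%) held them, against 9 of 209 (4.31%) of those that were higher. They were present in 20 of 32 windows of the type I interferon list (62.5%) and in 15 of 28 of the interferon gamma and MHC class I list (53.6%). The windows of Mx1, Psmb8 and Psmb9 held no match. A match is a run of letters and not a measured binding site.

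Genes that type I interferon raises split the libraries of both groups. Of 46 genes listed, 44 were tested and 42 had a fold change below 0, and 5 (11.4%) passed an unadjusted p under 0.05. Among all tested genes 51.6% had a fold change below 0 and 4.47% were lower past that p. The list score, the mean over tested members of log2(CPM + 0.5) minus its mean over the 18 libraries, was -0.270, 1.33 and -0.685 in Sham_solvent, against 2.18, -0.936 and 1.85 in Ctrl_solvent. The other 12 libraries ranged between -1.16 and 1.32. Ctrl_solvent replicates 1 and 3 were above that range, Sham_solvent replicate 2 was at its top, and Ctrl_solvent replicate 2 was the lowest of the 6. Within Ctrl_solvent 34 of the 44 members differed by more than 4-fold between libraries, against 331 of all tested genes (1.94%), and within Sham_solvent 28 did, against 174 of all tested genes (1.02%). The count past an unadjusted p under 0.05 was 27 without Sham_solvent replicate 2, 19 without Ctrl_solvent replicate 2, 2 without Sham_solvent replicate 1 or Ctrl_solvent replicate 3, and 1 without Sham_solvent replicate 3 or Ctrl_solvent replicate 1.

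Irf7, the transcription factor that amplifies the type I response, had 15.6, 124 and 13.1 CPM in Sham_solvent, against 252, 9.04 and 182 CPM in Ctrl_solvent. Isg15, a ubiquitin-like modifier, had 21.3, 86.9 and 9.39 CPM in Sham_solvent, against 203, 3.95 and 119 CPM in Ctrl_solvent. For both genes the Sham_solvent libraries lay inside the range of Ctrl_solvent, whose replicates were at both ends. The log2 fold change of Isg15 was -1.46 ± 1.31 with an adjusted p of 0.936 in edgeR. Ifit1 had 4.75, 0.118 and 3.28 CPM in Sham_solvent, against 119, 0.0271 and 87.8 CPM in Ctrl_solvent. This was the widest range within Ctrl_solvent among genes with a proper symbol at a mean of 5 CPM or more. In Ctrl_solvent replicate 2 that level is 1 read. For Ifit1, unlike Irf7 and Isg15, Sham_solvent replicate 2 was the lowest library of its group. Slfn4, a member of the interferon-induced Schlafen family, and Usp18, which removes Isg15 from proteins, were among the widest within Sham_solvent. Slfn4 had 7.56, 165 and 4.69 CPM in Sham_solvent, against 118, 3.25 and 106 CPM in Ctrl_solvent. Usp18 had 13.5, 88.9 and 4.22 CPM in Sham_solvent, against 107, 3.82 and 68.7 CPM in Ctrl_solvent. In both genes Sham_solvent replicate 2 stood with Ctrl_solvent replicates 1 and 3.

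**Figure D3:**
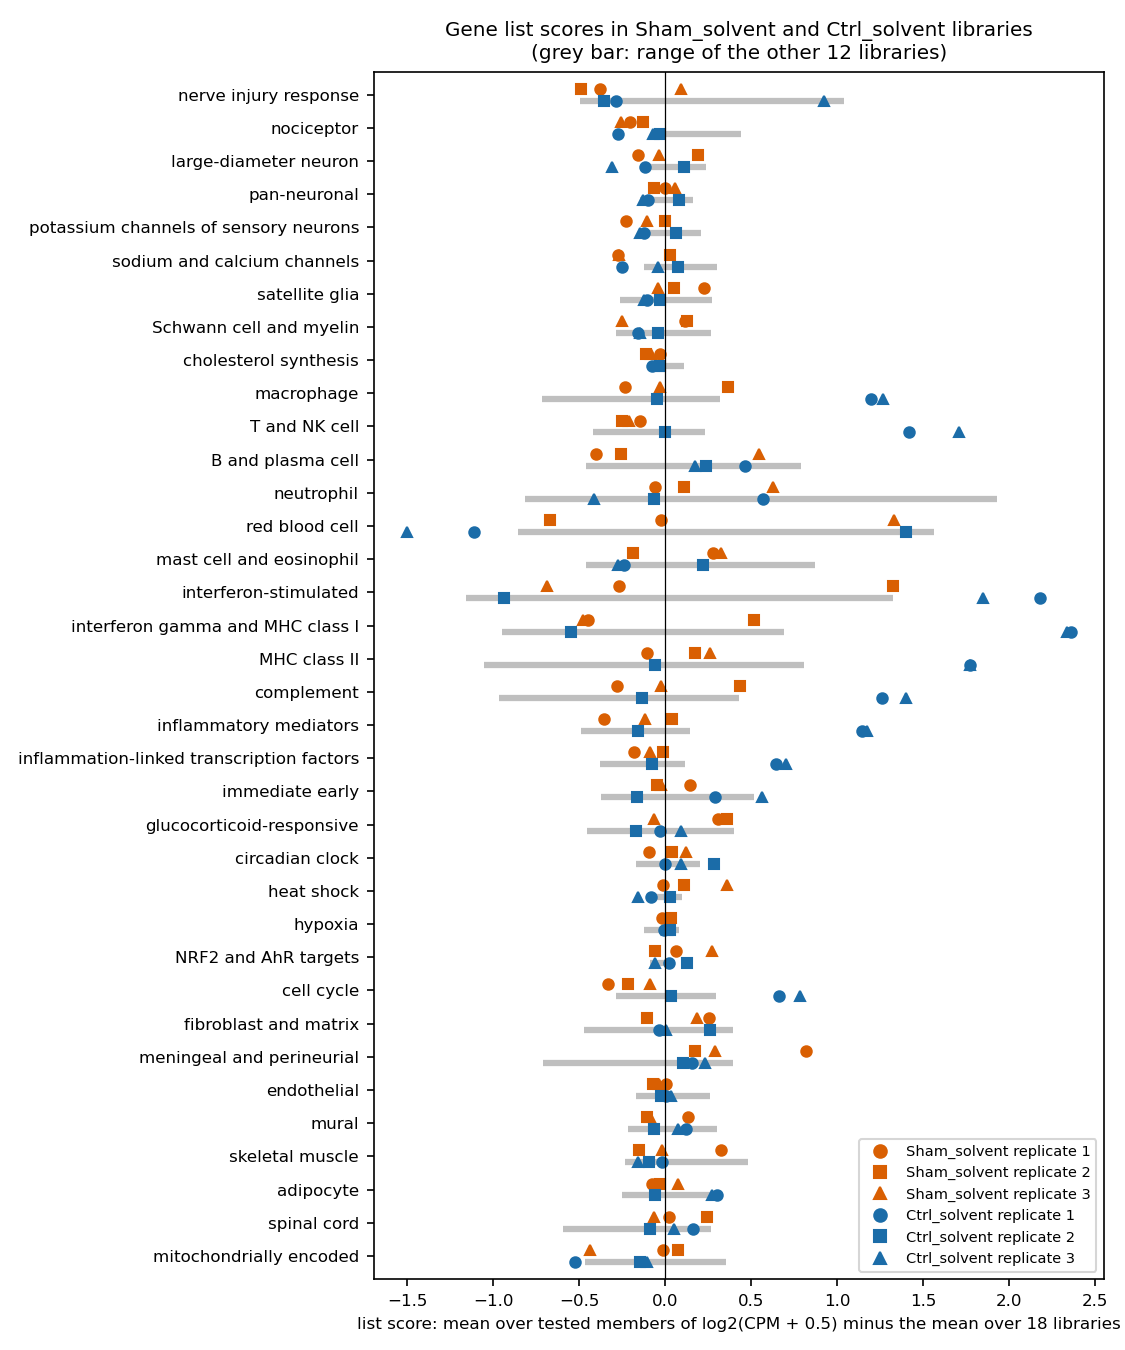
Score of each gene list in the 3 Sham_solvent libraries (orange) and the 3 Ctrl_solvent libraries (blue), as the mean over tested members of log2(CPM + 0.5) minus the mean over the 18 libraries, with a grey bar for the range of the other 12 libraries. T and NK cell genes scored -0.147, -0.251 and -0.209 in Sham_solvent and 1.42, -0.0006 and 1.71 in Ctrl_solvent. Neuron lists lie between -0.306 and 0.190 in all 6 libraries. Nociceptor scores of the Sham_solvent libraries and of Ctrl_solvent replicate 1 lie below the lowest of the other 12 libraries, -0.0841.

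MHC class II genes, which macrophages and other antigen-presenting cells use, were lower in Sham_solvent for 10 of 10 members, and 6 (60%) passed an unadjusted p under 0.05. Of all tested genes, 4.47% were lower past that p. The count of members was 9 without Ctrl_solvent replicate 2 and 1 without Ctrl_solvent replicate 3. It was 2 without Sham_solvent replicate 1, Sham_solvent replicate 2 or Ctrl_solvent replicate 1. RT1-Da, an alpha chain on chromosome 20, had 40.8, 50.8 and 57.1 CPM in Sham_solvent, against 225, 47.5 and 226 CPM in Ctrl_solvent. Ciita, the transcription factor that turns these genes on, had 0.488, 0.864 and 1.05 CPM in Sham_solvent, against 5.68, 1.597 and 9.06 CPM in Ctrl_solvent. Its groups did not overlap. Reads of RT1 genes can be shared between near-identical copies, so the level of a single copy is uncertain.

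Macrophage genes were lower in Sham_solvent for 30 of 34 members, with 17 past an unadjusted p under 0.05 and 1 higher past it. Over all tested genes, 4.47% were lower past that p and 1.65% were higher. Without Ctrl_solvent replicate 3 the lower count was 4, without Sham_solvent replicate 1 it was 7, without Ctrl_solvent replicate 1 it was 9 and without Ctrl_solvent replicate 2 it was 22. Cd68, a lysosomal protein of macrophages, had 3.37, 9.63 and 4.36 CPM in Sham_solvent, against 26.3, 6.87 and 28.0 CPM in Ctrl_solvent. Cd14, the co-receptor for bacterial lipopolysaccharide, had 4.31, 2.14 and 2.47 CPM in Sham_solvent, against 11.5, 3.17 and 14.0 CPM in Ctrl_solvent. Folr2, a folate receptor of tissue macrophages, had 3.495, 3.10 and 2.67 CPM in Sham_solvent, against 9.90, 5.41 and 7.87 CPM in Ctrl_solvent. Folr2 did not overlap between the groups, and its log2 fold change of -1.32 ± 0.29 had an adjusted p of 0.459 in edgeR, 0.0185 in edgeR without Ctrl_solvent replicate 2 and 0.0161 in DESeq2.

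Other receptors of resident macrophages had other patterns. Mrc1, the mannose receptor, had 16.1, 13.4 and 18.2 CPM in Sham_solvent, against 16.99, 17.5 and 16.8 CPM in Ctrl_solvent. Cd163, the scavenger receptor for haptoglobin and hemoglobin, had 5.53, 7.35 and 7.16 CPM in Sham_solvent, against 5.09, 7.82 and 3.37 CPM in Ctrl_solvent. Lyve1, a hyaluronan receptor, was the member higher past an unadjusted p under 0.05, with 8.74, 3.36 and 7.97 CPM in Sham_solvent, against 1.95, 5.41 and 2.36 CPM in Ctrl_solvent. Csf1r, the receptor for the growth factor of macrophages, had 21.2, 26.8 and 21.8 CPM in Sham_solvent, against 36.2, 32.9 and 40.3 CPM in Ctrl_solvent, a narrow gap without overlap. Its log2 fold change was -0.64 ± 0.20 with an adjusted p of 0.554 in edgeR.

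Complement genes were lower in Sham_solvent for 20 of 24 members, 10 of them (41.7%) past an unadjusted p under 0.05. The share of all tested genes lower past that p was 4.47%. There were 14 such complement genes without Ctrl_solvent replicate 2 and 6 without Ctrl_solvent replicate 3. C3, on which all complement pathways converge, had 2.93, 9.68 and 6.82 CPM in Sham_solvent, against 66.5, 6.33 and 60.2 CPM in Ctrl_solvent. C1r, a protease of the classical pathway, had 60.5, 78.4 and 61.1 CPM in Sham_solvent, against 217, 63.2 and 231 CPM in Ctrl_solvent. C4a had 12.0, 128 and 21.6 CPM in Sham_solvent, against 197, 17.5 and 226 CPM in Ctrl_solvent, and may share reads with its copy C4b. In C4a, as in Irf7, Isg15, Slfn4 and Usp18, Sham_solvent replicate 2 stood above the other Sham_solvent libraries.

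Inflammatory mediators were lower in Sham_solvent for 27 of 28 tested members of 38 listed, and 16 (57.1%) passed an unadjusted p under 0.05. With the untested members counted too, 33 of 37 had a lower mean in Sham_solvent and 4 had a higher one. The share of all tested genes lower past that p was 4.47%. There were 22 such mediators without Ctrl_solvent replicate 2 and 9 without Ctrl_solvent replicate 3. Ccl2, which attracts monocytes, had 16.1, 8.72 and 21.8 CPM in Sham_solvent, against 66.2, 21.4 and 60.8 CPM in Ctrl_solvent. Ccl12, another chemokine for monocytes, had 0.203, 0.354 and 0.101 CPM in Sham_solvent, against 18.5, 0.514 and 9.36 CPM in Ctrl_solvent, without overlap. Tnf, an early cytokine of inflammation, had 0.0406, 0.177 and 0.0338 CPM in Sham_solvent, against 1.41, 0.352 and 1.36 CPM in Ctrl_solvent. Its levels in Sham_solvent replicates 1 and 3 are 1 read each. Cxcl13, which attracts B cells, had 3.58, 13.5 and 4.49 CPM in Sham_solvent, against 107, 5.47 and 157 CPM in Ctrl_solvent. Il6 and Ptgs2, a cytokine and the inducible cyclooxygenase often followed in pain models, did not pass the filter, and Ptgs2 was above 0 in Sham_solvent replicate 2 alone, at 0.275 CPM. The adhesion molecules Vcam1 and Icam1 let leukocytes leave the blood. Vcam1 had 7.03, 9.84 and 12.6 CPM in Sham_solvent, against 25.6, 12.3 and 36.3 CPM in Ctrl_solvent, and DESeq2 gave it an adjusted p of 0.0371. Icam1 had 5.97, 7.62 and 6.38 CPM in Sham_solvent, against 20.7, 6.36 and 21.0 CPM in Ctrl_solvent.

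Transcription factors linked to inflammation were lower in Sham_solvent for 29 of 34 members, with 15 (44.1%) past an unadjusted p under 0.05. Of all tested genes, 4.47% were lower past that p. The count of members was 20 without Ctrl_solvent replicate 2 and 10 without Ctrl_solvent replicate 3. Irf8, which macrophages and dendritic cells need, had 1.75, 6.60 and 6.21 CPM in Sham_solvent, against 25.5, 6.17 and 21.2 CPM in Ctrl_solvent. Stat3, which carries cytokine signals in most cells, had 157, 200 and 192 CPM in Sham_solvent, against 238, 206 and 252 CPM in Ctrl_solvent, a log2 fold change of -0.34 ± 0.10. Cebpb had 9.63, 5.01 and 6.75 CPM in Sham_solvent, against 8.98, 5.36 and 6.17 CPM in Ctrl_solvent, with a fold change close to 0. Stat3 did not overlap between the groups and Cebpb did.

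Cell cycle genes were lower in Sham_solvent for 30 of 33 members, with 20 (60.6%) past an unadjusted p under 0.05 and 16 without overlap between the groups, more than in any other list. Over all tested genes, 4.47% were lower past that p and 4.12% were below without overlap. The count of members past that p was 24 without Ctrl_solvent replicate 2 and 12 without Ctrl_solvent replicate 3. Mcm5, a subunit of the helicase that opens DNA for replication, had the smallest unadjusted p of all tested genes, 4.04e-05, with an adjusted p of 0.458 in edgeR, 0.00253 in edgeR without Ctrl_solvent replicate 2 and 0.00134 in DESeq2. It had 1.83, 1.61 and 1.99 CPM in Sham_solvent, against 6.98, 3.36 and 7.35 CPM in Ctrl_solvent, a log2 fold change of -1.70 ± 0.31. Here Ctrl_solvent replicate 2 stood between the Sham_solvent libraries and the other Ctrl_solvent libraries. Aurkb, a kinase of chromosome segregation, had 0.447, 0.393 and 0.439 CPM in Sham_solvent, against 2.76, 1.16 and 3.63 CPM in Ctrl_solvent. Mki67, a marker of dividing cells, had 3.37, 2.97 and 2.50 CPM in Sham_solvent, against 8.22, 3.27 and 13.3 CPM in Ctrl_solvent, and overlapped through Ctrl_solvent replicate 2. Which cells divided cannot be read from whole ganglia.

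Fewer genes were higher than lower in Sham_solvent at an unadjusted p under 0.05, and most of those named differed by less than 1 on the log2 scale. By the naming rule, the 10 genes of smallest unadjusted p among those higher without overlap were Gstt2, Selenov, Cacybp, Gucy1a2, Hist1h4b, Bc1, Tsc22d3, Nxnl2, Slc12a2 and Wnt2. Gstt2, a glutathione transferase on chromosome 20, had 13.1, 12.5 and 13.1 CPM in Sham_solvent, against 7.63, 8.55 and 8.49 CPM in Ctrl_solvent. Its log2 fold change was 0.65 ± 0.15, with an adjusted p of 0.459 in edgeR and 0.0371 in DESeq2. Cacybp, which binds the calcyclin protein, had 237, 240 and 278 CPM in Sham_solvent, against 207, 199 and 191 CPM in Ctrl_solvent, a log2 fold change of 0.34 ± 0.08 with an adjusted p of 0.0274 in DESeq2. Bc1, a small noncoding RNA of rodent neurons, had 9.51, 4.68 and 6.65 CPM in Sham_solvent, against 1.51, 2.71 and 1.88 CPM in Ctrl_solvent. Slc12a2, the sodium, potassium and chloride importer of sensory neurons, had 124, 112 and 116 CPM in Sham_solvent, against 84.0, 100 and 92.8 CPM in Ctrl_solvent. The rule picks genes without overlap, so the separation of their groups is a description.

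Genes that glucocorticoids raise had a fold change above 0 for 15 of 21 tested members, with 3 past an unadjusted p under 0.05 and 5 above without overlap, at a median log2 fold change of 0.31. Over all tested genes, 48.4% had a fold change above 0, 1.65% were higher past that p and 3.02% were above without overlap. Without Sham_solvent replicate 3 the count past that p was 5, and it was 2 without Sham_solvent replicate 1 or Ctrl_solvent replicate 1. Over all genes tested, 281 were higher past that p with all libraries. That number was 253, 1062 and 294 without Sham_solvent replicates 1, 2 and 3. It was 233, 602 and 218 without Ctrl_solvent replicates 1, 2 and 3. Tsc22d3, which encodes the glucocorticoid-induced leucine zipper, had 338, 313 and 283 CPM in Sham_solvent, against 218, 261 and 186 CPM in Ctrl_solvent. Zbtb16, a zinc finger factor, had 15.8, 18.2 and 13.1 CPM in Sham_solvent, against 6.93, 8.01 and 8.27 CPM in Ctrl_solvent, a log2 fold change of 1.02 ± 0.34 with an adjusted p of 0.584 in edgeR. Ddit4, the other member past that p, named after its values were seen, had 116, 78.1 and 54.9 CPM in Sham_solvent, against 51.1, 66.1 and 42.1 CPM in Ctrl_solvent. Fkbp5 and Per1, both classical targets, did not pass that p. Fkbp5 separated the groups narrowly and Per1 overlapped. Fkbp5 had 43.9, 48.3 and 41.5 CPM in Sham_solvent, against 37.6, 31.9 and 41.1 CPM in Ctrl_solvent, and Per1 had 27.3, 28.2 and 15.3 CPM in Sham_solvent, against 15.0, 23.7 and 18.6 CPM in Ctrl_solvent.

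Heat shock genes had a fold change above 0 for 20 of 20 tested members, where 48.4% of all tested genes had, at a median log2 fold change of 0.18. Past an unadjusted p under 0.05 there were 4 members, Dnajb1, Chordc1, Hspa1b and Bag3, where Chordc1 and Bag3 were named after their values were seen. Of all tested genes, 1.65% were higher past that p. Hspa1b, the inducible chaperone, had 19.9, 23.5 and 72.7 CPM in Sham_solvent, against 18.3, 18.6 and 14.3 CPM in Ctrl_solvent. Dnajb1, its partner, had 71.4, 74.1 and 105 CPM in Sham_solvent, against 66.9, 65.5 and 61.5 CPM in Ctrl_solvent. Sham_solvent replicate 3 was the highest library in both, and without it 0 members passed an unadjusted p under 0.05. Without Ctrl_solvent replicate 3 the count was 1, without Sham_solvent replicate 2 it was 6, without Ctrl_solvent replicate 2 it was 8 and without Sham_solvent replicate 1 it was 9.

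**Figure D4:**
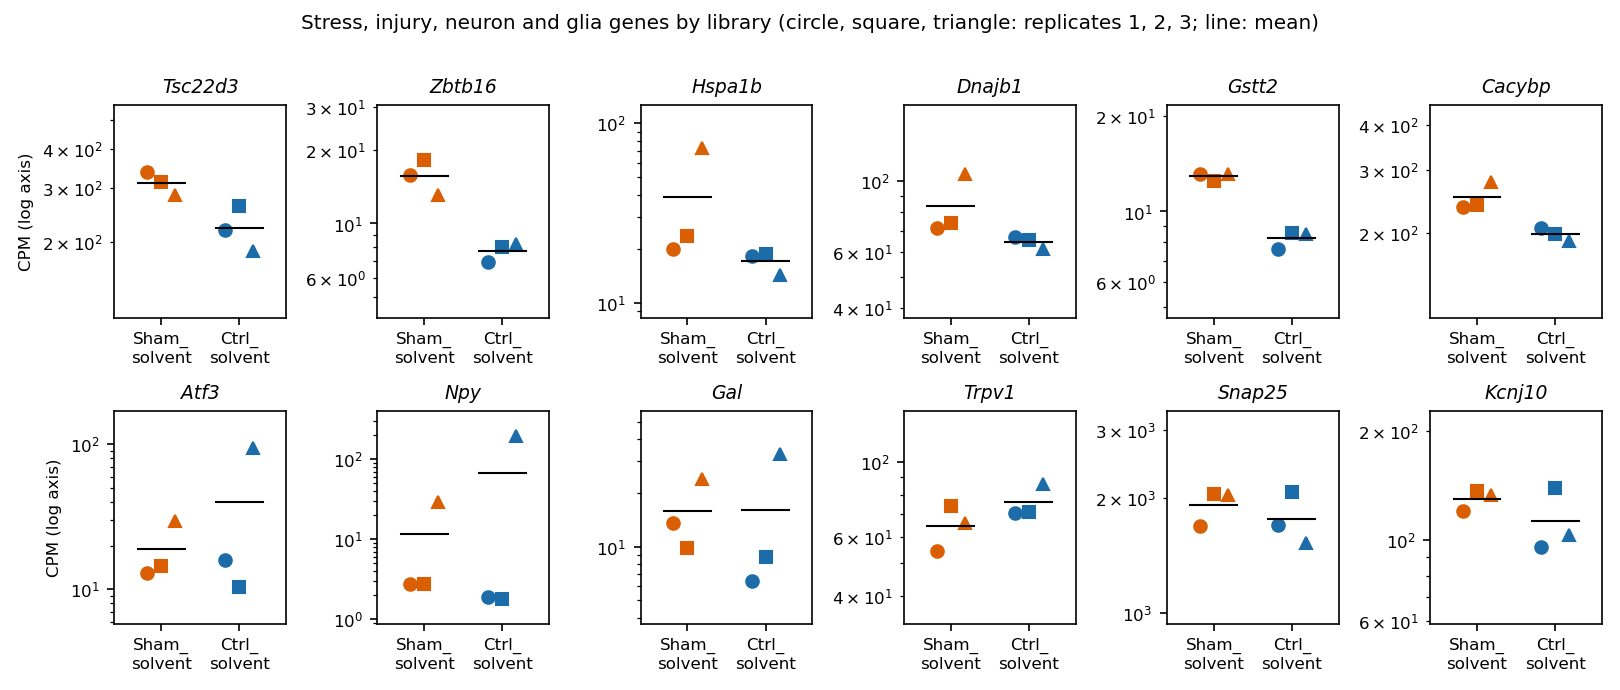
Level of 12 stress, injury, neuron and glia genes in each Sham_solvent library (orange, left) and each Ctrl_solvent library (blue, right), in CPM on log axes, with a line at the group mean. Tsc22d3, Zbtb16, Gstt2 and Cacybp separate the groups, while the injury genes Atf3, Npy and Gal are highest in Ctrl_solvent replicate 3.

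Neuron genes had median fold changes close to 0. With no library left out, none of 36 nociceptor, 25 large-diameter, 25 pan-neuronal, 28 potassium channel or 27 sodium and calcium channel genes tested passed an unadjusted p under 0.05. Of all tested genes, 6.12% did. Their median log2 fold changes lay between -0.07 and 0.05. Without Ctrl_solvent replicate 2, 6 large-diameter genes were higher and 1 was lower past that p, and without Sham_solvent replicate 1, 4 were higher. Without Sham_solvent replicate 2, 4 nociceptor genes were higher and 4 were lower, 3 pan-neuronal genes were higher and 1 was lower, and 3 potassium channel genes were lower and 1 was higher. The other single-library omissions gave at most 3 genes of a neuron list past that p. Over all genes tested, 2557 of 17391 passed that p without Sham_solvent replicate 2. The same count was 1810 of 17388 without Ctrl_solvent replicate 2 and 778 of 17457 without Sham_solvent replicate 1. Trpv1, the channel for heat and capsaicin, had 54.3, 73.9 and 66.1 CPM in Sham_solvent, against 70.4, 70.9 and 86.4 CPM in Ctrl_solvent. Scn10a, a sodium channel of nociceptors, had 237, 292 and 205 CPM in Sham_solvent, against 228, 303 and 261 CPM in Ctrl_solvent. Calca, the precursor of the neuropeptide CGRP, had 1196, 811 and 1152 CPM in Sham_solvent, against 828, 1024 and 797 CPM in Ctrl_solvent. These ranges overlapped. Snap25, of the presynaptic release machinery, had 1681, 2040 and 2032 CPM in Sham_solvent, against 1698, 2067 and 1523 CPM in Ctrl_solvent, a log2 fold change of 0.12 ± 0.12. These defining genes were high in all 6 libraries, as the label of dorsal root ganglion asks.

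Genes of the neuronal response to nerve injury had fold changes mostly below 0, and leaving out 1 library turned the direction of their median. Of 33 tested members 30 had a fold change below 0, but 2 (6.06%) passed an unadjusted p under 0.05, at a median log2 fold change of -0.37. Over all tested genes 51.6% had a fold change below 0 and 4.47% were lower past that p, so the share of members past it was near that of all genes. Without Ctrl_solvent replicate 3 the median was 0.10 and the count was 0, while the count was 5 without Ctrl_solvent replicate 1 and 4 without Ctrl_solvent replicate 2. Atf3, the transcription factor that marks injured neurons, had 12.96, 14.4 and 29.4 CPM in Sham_solvent, against 15.9, 10.4 and 94.6 CPM in Ctrl_solvent. Npy, a neuropeptide that injured large neurons start to make, had 2.76, 2.75 and 29.3 CPM in Sham_solvent, against 1.89, 1.79 and 196 CPM in Ctrl_solvent. Sprr1a, linked to axon growth, was at 0, 0.0393 and 0.371 CPM in Sham_solvent, against 0, 0 and 1.36 CPM in Ctrl_solvent. In each of these, replicate 3 was the highest library of its group, in Sham_solvent as in Ctrl_solvent. Gal had 13.5, 9.80 and 24.0 CPM in Sham_solvent, against 6.44, 8.71 and 32.9 CPM in Ctrl_solvent.

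The members past an unadjusted p were Csf1 and Socs3, named after their values were seen. Csf1, a growth factor for macrophages and microglia that injured neurons make, had 14.7, 18.8 and 16.0 CPM in Sham_solvent, against 34.6, 16.2 and 45.8 CPM in Ctrl_solvent. Socs3, an inhibitor of cytokine signalling, had 5.77, 5.54 and 7.13 CPM in Sham_solvent, against 14.9, 7.41 and 31.8 CPM in Ctrl_solvent. Both were high in Ctrl_solvent replicates 1 and 3, as the immune genes were, and not in replicate 3 alone. The list score of nerve injury genes in Ctrl_solvent replicate 3 was 0.921. The other 12 libraries, which hold the NPP groups, ranged between -0.496 and 1.04. Of the 18 libraries only NPP_herb replicate 2, at 1.04, scored higher. NPP_solvent scored 0.669, 0.304 and -0.0309, all below this control library.

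Glia genes had fold changes mostly above 0, by small amounts. Schwann cell and myelin genes had a fold change above 0 for 20 of 26 members, at a median of 0.14 on the log2 scale, and 0 passed an unadjusted p under 0.05. Of all tested genes, 48.4% had a fold change above 0 and 1.65% were higher past that p. Without Sham_solvent replicate 3 the median was 0.24 and 5 members were higher past that p, as were 294 of 17372 tested genes. The median was 0.08 without Sham_solvent replicate 1. Satellite glia genes were above 0 for 16 of 21 members, with a median of 0.13 and 1 past that p, Scrg1, named after its values were seen. Without Ctrl_solvent replicate 2, 3 satellite glia genes were higher past it, as were 602 of 17388 tested genes. Kcnj10, the potassium channel of satellite glia, had 120, 137 and 134 CPM in Sham_solvent, against 96.1, 139 and 103 CPM in Ctrl_solvent. Gfap, which reactive glia raise, had 12.3, 11.1 and 7.70 CPM in Sham_solvent, against 27.4, 7.77 and 35.2 CPM in Ctrl_solvent. Gfap followed the pattern of the immune genes, with Ctrl_solvent replicate 2 among the Sham_solvent libraries.

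Blood cell genes varied between libraries without separating the groups. Red blood cell genes had scores of -0.0220, -0.667 and 1.33 in Sham_solvent, against -1.11, 1.40 and -1.50 in Ctrl_solvent. Hba-a1, a globin gene that may share reads with its copy Hba-a2, had 49.6, 9.51 and 313 CPM in Sham_solvent, against 4.82, 301 and 1.40 CPM in Ctrl_solvent. Ctrl_solvent replicate 2, low in immune genes, was the highest of its group in globin, and Ctrl_solvent replicates 1 and 3 were the lowest of the 18 libraries in the red cell score. The part of residual blood in the immune gene differences was not tested.

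Neutrophil genes had a fold change above 0 for 18 of 22 tested members, where 48.4% of all tested genes had. The list had 0 members past an unadjusted p under 0.05 and a median log2 fold change of 0.27. That median was 0.04 without Ctrl_solvent replicate 3 and 0.81 without Ctrl_solvent replicate 1. S100a8, an abundant neutrophil protein, had 37.0, 31.2 and 58.0 CPM in Sham_solvent, against 57.6, 21.4 and 14.9 CPM in Ctrl_solvent. Neutrophil genes did not share the order of libraries seen for T cell and macrophage genes. B and plasma cell genes were near the detection limit, and 9 of 19 were tested. Cd79a, part of the B cell receptor, had 1.38, 0.963 and 4.46 CPM in Sham_solvent, against 1.68, 2.19 and 0.919 CPM in Ctrl_solvent. Mast cell and eosinophil genes were split, with 8 of 14 above 0.

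Connective tissue, vessel and muscle genes, which dissection can carry along, had small median fold changes with few members past an unadjusted p under 0.05. Of all tested genes, 48.4% had a fold change above 0 and 6.12% passed that p. Of 33 fibroblast and matrix genes 20 had a fold change above 0, and of 23 endothelial genes 7 had, with median log2 fold changes of 0.08 and -0.08. Meningeal and perineurial genes were above 0 for 19 of 24 members, at a median of 0.17, and Sham_solvent replicate 1 had the highest score of the 18 libraries, 0.816. Without Sham_solvent replicate 2, 6 meningeal and 4 muscle genes were higher past that p, as were 1062 of 17391 tested genes. Ptgds, a prostaglandin synthase made by the meninges and named after its values were seen, had 940, 237 and 265 CPM in Sham_solvent, against 173, 257 and 139 CPM in Ctrl_solvent. Skeletal muscle genes were above 0 for 16 of 23, at a median of 0.22 that turned to -0.08 without Sham_solvent replicate 1, and Acta1 had 14.8, 6.19 and 8.85 CPM in Sham_solvent, against 8.01, 7.09 and 5.91 CPM in Ctrl_solvent.

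The spread within groups differed by gene group. The median gene had a log2 range between libraries of 0.42 within Sham_solvent and 0.354 within Ctrl_solvent, so a typical gene varied slightly less in Ctrl_solvent. For the interferon gamma and MHC class I list the medians were 1.15 within Sham_solvent and 3.25 within Ctrl_solvent, and for T and NK cell genes 0.35 within Sham_solvent and 1.75 within Ctrl_solvent. Of the 18 libraries, Ctrl_solvent replicate 1 had the highest score in 4 lists, Ctrl_solvent replicate 3 in 7, Ctrl_solvent replicate 2 in 1 and a Sham_solvent library in 3.

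**Figure D5:**
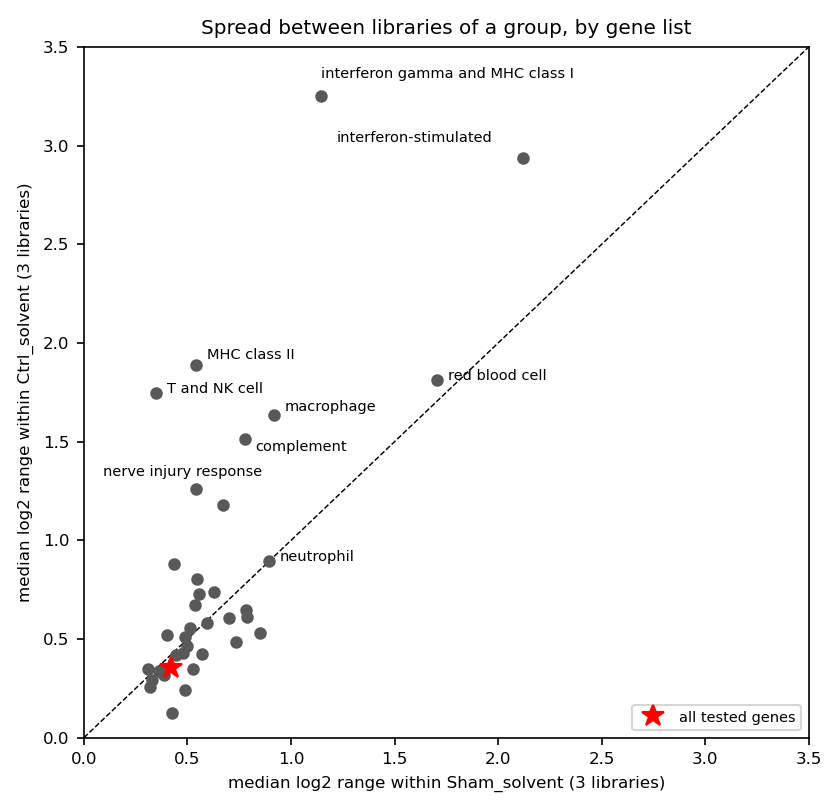
Median over the tested members of each gene list of the log2 range between the 3 libraries of a group, within Sham_solvent (horizontal) and within Ctrl_solvent (vertical), with a dashed line of equal range and a star for all tested genes (0.42 and 0.354). Interferon, T and NK cell, macrophage, complement and MHC class II lists lie above the line, with medians up to 3.25 within Ctrl_solvent, red blood cell and neutrophil lists lie near it, and the mast cell and eosinophil list lies below it.

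A few genes were near 0 in some libraries and high in others without regard to group. Chchd2, a mitochondrial protein, had 147, 1.24 and 110 CPM in Sham_solvent, against 1.35, 45.1 and 1.62 CPM in Ctrl_solvent, the widest range within Sham_solvent by the same rule. Uprt, on the X chromosome, had 23.1, 0.0196 and 26.3 CPM in Sham_solvent, against 21.6, 24.98 and 23.7 CPM in Ctrl_solvent. Ndufa10l1 had 15.2, 0.0393 and 8.38 CPM in Sham_solvent, against 15.5, 0.0271 and 22.6 CPM in Ctrl_solvent. Crh, the corticotropin-releasing hormone, had 27.7, 0.413 and 21.5 CPM in Sham_solvent, against 6.33, 9.99 and 8.01 CPM in Ctrl_solvent. Such values also occurred outside the 6 libraries, where Chchd2 ranged between 1.09 and 84.6 CPM and Uprt between 0 and 30.7 CPM.

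Sham_herb against Ctrl is the other comparison of sham with control libraries, and it shares no library with the first, but the treatments differ between its groups. Ctrl replicates 2 and 3 had 1 and 0 reads of Eif2s3y, against 3006 in Ctrl replicate 1, so reads of the Y chromosome were nearly absent there. That comparison gave 0 genes at an adjusted p under 0.05 with edgeR (smallest 0.111) and 3227 (18.9%) at an unadjusted p under 0.05. Its median log2 fold change was 0.42 for T and NK cell genes, 1.03 for interferon gamma and MHC class I genes and 1.34 for type I interferon genes, where Sham_solvent against Ctrl_solvent had -2.39, -2.10 and -0.95. For Sham_solvent against Ctrl_solvent the type I median was -2.14 without Sham_solvent replicate 2 and -0.56 without Ctrl_solvent replicate 1. Cxcl9 had 3.56, 15.3 and 0.818 CPM in Sham_herb, against 1.10, 0.582 and 0.980 CPM in Ctrl. Gbp2 had 50.5, 119 and 25.4 CPM in Sham_herb, against 19.5, 25.1 and 18.2 CPM in Ctrl. For T and NK cell and interferon genes the lower levels in Sham_solvent were not matched in direction there. Cell cycle genes had a median fold change below 0 in both comparisons. Their median log2 fold change was -0.38 for Sham_herb against Ctrl and -0.95 for Sham_solvent against Ctrl_solvent. In Sham_herb 24 of the 33 members were lower and 9 were higher. Of these members 5 were lower past an unadjusted p under 0.05, where 18.9% of all tested genes passed it in either direction. The list score was -0.179, -0.275 and -0.215 in Sham_herb, against -0.284, 0.297 and 0.124 in Ctrl. Ctrl replicate 1 thus lay below all 3 Sham_herb libraries, and the lower median rested on Ctrl replicates 2 and 3. The difference between the comparisons was not tested.

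Among the 12 libraries outside the comparison, Gbp2 ranged between 18.2 and 119 CPM, Cxcl9 between 0.582 and 15.3 CPM and Cd68 between 2.32 and 11.3 CPM. The Sham_solvent libraries lay inside all these ranges, and Ctrl_solvent replicates 1 and 3 lay above them. With 3 libraries against 3, an exact permutation test of a single gene cannot give a p below 0.1. What set Ctrl_solvent replicates 1 and 3 apart from replicate 2 is not recorded in the labels and was not tested.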

How the data were processed

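Poly(A) RNA of rat dorsal root ganglia was sequenced in 18 libraries (6 groups of 3) as paired reads of a stranded kit, per the labels' protocols. The authors deposited a table of raw counts (reads per gene) and a table of FPKM (reads relative to gene length and depth). Per the submitters' processing notes, HISAT2, DESeq2 and build mRatBN7.2 were used. Tool versions, the program that counted reads, whether it used strand, and the annotation are not stated by the sources used here. The 6 libraries held 18170925 to 50289652 counts.

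Of 25678 genes, 17043 passed edgeR's filterByExpr (minimum count 10). Counts were scaled by TMM, and all 18 libraries were fitted with edgeR 4.0.16 (quasi-likelihood, robust, 12 residual degrees of freedom, R 4.3.3), with Benjamini-Hochberg adjustment over all tested genes. The standard error was taken from the fold change and its F statistic. The script was tested on simulated data. DESeq2 1.42.0, limma 3.58.1 on log2(FPKM + 0.1) and other settings were alternatives. 

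Genes named are the 10 per direction of smallest unadjusted p at a mean of 1 CPM or more without overlap, since none passed the adjusted p, key genes of each list, the 10 of widest range within each group at a mean of 5 CPM or more, and the 4 of smallest p in lists with 25% or more past it. The comparison, its lists and key genes were chosen with earlier results of these data known. Lists are described by counts and medians, with no set test. Promoter sequences are from RefSeq (GRCr8).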

Additional observations from a re-analysis of the deposited data

How the results depend on the processing

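The count of genes at an adjusted p under 0.05 was 0 with edgeR over all 18 libraries and stayed 0 with DESeq2's size factors, library totals, no low-count filter, the 6 libraries alone, limma voom, limma on FPKM and a gene length covariate. DESeq2's Wald test gave 35 genes, 3 higher and 32 lower in Sham_solvent. Leaving out each library in turn gave 0 to 252 genes, 0 to 19 higher and 0 to 233 lower, with every call in the fit without Ctrl_solvent replicate 2. The count at an unadjusted p under 0.05 was 1043, and 547 with the 6 libraries alone, 1609 with log2(FPKM + 0.1) and no filter, and 549 (without Ctrl_solvent replicate 3) to 2557 (without Sham_solvent replicate 2) without a library. The cause of these moves was not tested. Of 186 named genes, 52 changed sign in at least one alternative while not called, and 0 changed sign while called. With log2(FPKM + 1) the median log2 fold change was -0.58 for T and NK cell genes, -1.06 for interferon gamma and MHC class I genes, -0.51 for complement genes and -0.39 for cell cycle genes, since a larger pseudocount shrinks low genes. The red blood cell list's median log2 fold change lay between -1.73 and 3.55 without a library.

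With the replicate number as a block, in the 6 libraries alone, 0 genes were called and 409 passed an unadjusted p under 0.05. The numbers share no source in the labels, and the deviations of same-numbered libraries from their group means had correlations of 0.128, -0.255 and -0.184.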

Other observations

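Clock genes differed between libraries of a group more than between the groups. Dbp, an output gene of the clock, had 32.4, 18.01 and 35.0 CPM in Sham_solvent, against 22.9, 78.3 and 19.6 CPM in Ctrl_solvent. Per2, of its repressor arm, had 4.92, 6.58 and 14.0 CPM in Sham_solvent, against 7.09, 14.9 and 8.88 CPM in Ctrl_solvent. Ctrl_solvent replicate 2 was the highest library of the 6 in both. The hour at which ganglia were taken is not stated by the sources used here.

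Immediate early genes, the first that stimulated cells transcribe, had 3 of 28 tested members past an unadjusted p under 0.05, all lower in Sham_solvent. That share was 10.7%, against 4.47% of all tested genes lower past that p. Fos had 2.28, 4.05 and 3.55 CPM in Sham_solvent, against 10.7, 2.73 and 19.2 CPM in Ctrl_solvent. Junb had 18.3, 16.97 and 18.1 CPM in Sham_solvent, against 36.1, 16.4 and 37.8 CPM in Ctrl_solvent. Nr4a1, of the same class, had 68.8, 52.4 and 33.6 CPM in Sham_solvent, against 39.98, 45.9 and 42.9 CPM in Ctrl_solvent, with Sham_solvent replicate 1 highest. The count was 0 without Ctrl_solvent replicate 3 and 5 without Ctrl_solvent replicate 2.

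Genes of cholesterol synthesis, which Schwann cells and neurons use for membranes, varied little within Ctrl_solvent. The list's median log2 range was 0.425 within Sham_solvent and 0.124 within Ctrl_solvent, and its median log2 fold change was 0.06.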
